A study of Mus musculus with 4 samples.

Results

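Genomic imprinting is the expression of a gene from only the maternal or only the paternal copy. Imprinted genes lie in clusters, each governed by a differentially methylated control region, and at H19 and Igf2 the unmethylated control region is bound by the insulator protein CTCF, with which cohesin shares many of its sites. Rad21 is a subunit of cohesin, the complex best known for its part in chromosome segregation and in the folding of chromatin into loops. The data described here are the Rad21 binding sites around 8 imprinted genes, H19, Igf2, Kcnq1ot1, Peg3, Dlk1, Meg3, Grb10 and Igf2r. Members were the called Rad21 peaks that started within 250 kb of an approximate start position of one of these genes on the mouse build mm9, and they numbered 39 of 18405 peaks in neural stem cells (NSCs) and 37 of 16157 in astrocytes (ASTs). The rule used positions and no peak values, but the genes were picked with earlier results of these data known.

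NSCs are dividing precursors grown with EGF and FGF, here a clonal population derived from mouse embryonic stem cells, and ASTs are their post-mitotic progeny, kept with BMP, FGF and laminin. Each cell type had 1 library precipitated with a Rad21 antibody and 1 input library without antibody, 4 libraries in all, so each peak list stands for 1 Rad21 library. Without replicates, NSCs and ASTs were compared by their values alone, with no test. Each peak is described by the authors' fold enrichment, the fragment pile-up at its summit over the local background that the peak caller assigned, and fold enrichments carry 95% Poisson intervals from the number of fragments at the summit, which cover counting error only and take the background as known. Fold enrichment belongs to its own library, and for that reason the percentile of a peak within its list is also given.

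The 8 genes stand for different control circuits. H19, a non-coding RNA of the maternal copy, and Igf2, a growth factor of the paternal copy, share a control region and enhancers. Igf2r encodes the receptor that clears Igf2, and Grb10 encodes an adaptor that restrains insulin and growth factor signalling. Kcnq1ot1 is a paternal antisense RNA that silences neighbours such as Cdkn1c, Peg3 encodes a paternally expressed zinc-finger protein, and Dlk1, a Notch-like ligand, and Meg3, a maternal non-coding RNA, share a cluster on chromosome 12. The windows of H19 and Igf2 overlap, as do those of Dlk1 and Meg3, so the 8 genes gave 6 separate windows of 3.176 Mb in all.

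Rad21 peaks were found within 250 kb of 6 of the 8 genes, and in the joined window of Dlk1 and Meg3 neither list held any. Of 5282 fixed 500 kb stretches of the genome, 21.0% had no peak in either list. Of the 39 NSC members, 30 had at least 1 bp in common with an AST peak (76.9%, exact binomial 95% interval 60.7 to 88.9), where the whole NSC list gave 65.5%. Of the 37 AST members, 31 overlapped an NSC peak (83.8%, 68.0 to 93.8), where the whole AST list gave 74.7%. These intervals treat neighbouring peaks as independent, and no test against the whole list was made. The members without a partner were 9 NSC-only and 6 AST-only peaks.

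Members were of ordinary strength and width for their lists. The median fold enrichment was 8.21 in NSCs, where the whole list had 8.66, and 7.60 in ASTs, where it had 7.98. Median widths were 250 bp against 232 bp in NSCs and 205 bp against 204 bp in ASTs. Above the 75th percentile of their list by fold enrichment were 8 of the 39 NSC members and 10 of the 37 AST members. The windows were denser than the genome as a whole, with 12.3 NSC and 11.6 AST peaks per Mb, where the chromosomes up to their last peak held 6.98 and 6.13.

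**Figure D1:**
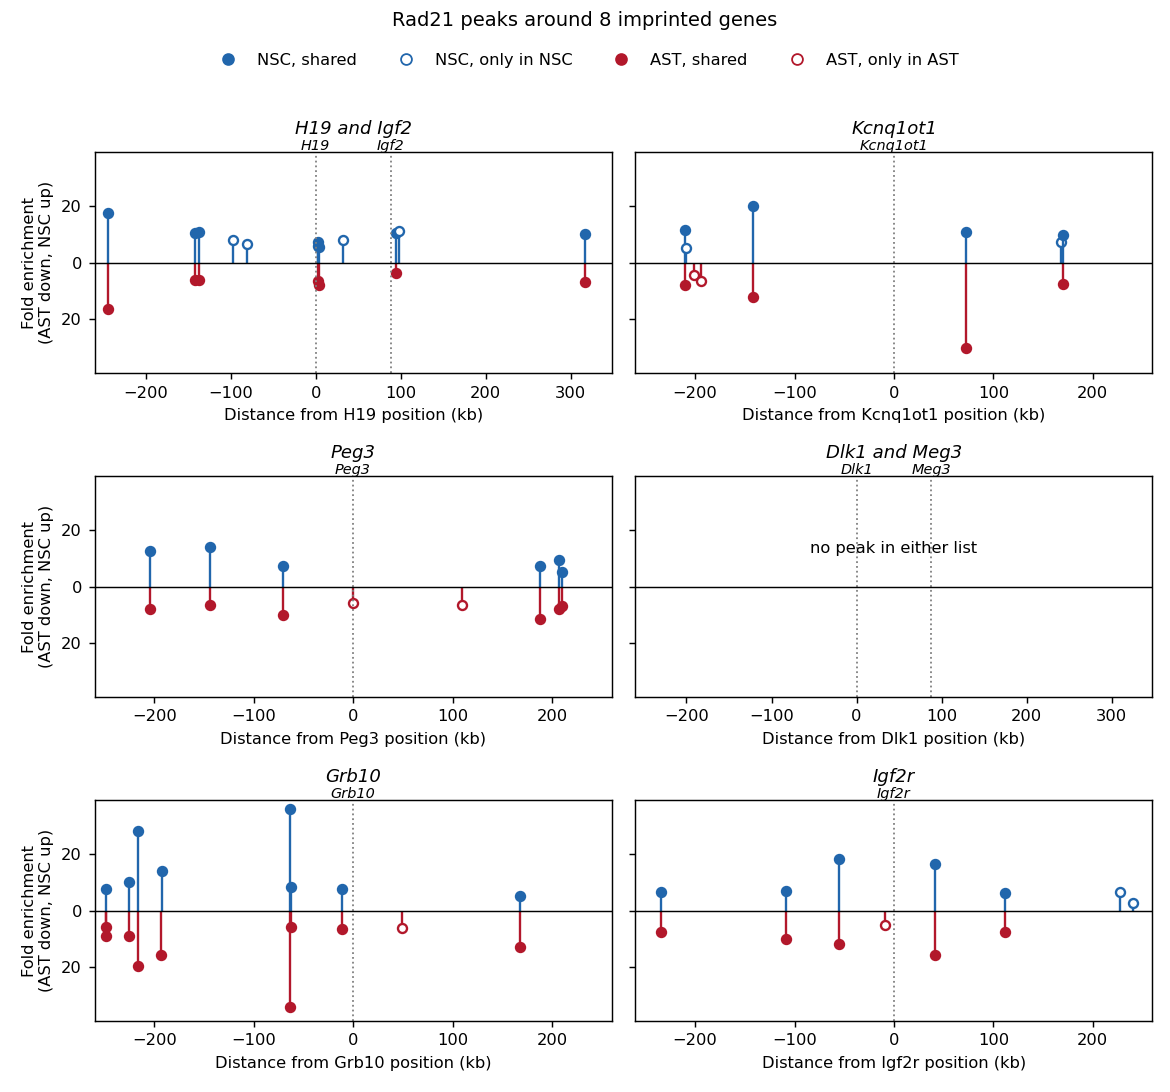
Fold enrichment (vertical axis) of each Rad21 peak against its distance in kb from the gene position along the chromosome (horizontal axis), with NSC peaks drawn upwards in blue, AST peaks downwards in red, shared peaks filled and cell-type-only peaks open. The tallest pair stands 63.8 kb to the left of the Grb10 position (35.8 in NSCs, 34.2 in ASTs), and the panel of Dlk1 and Meg3 is empty.

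The H19 and Igf2 windows joined to 588 kb and held 12 NSC and 7 AST peaks. All 7 AST peaks were shared, and 5 of the 12 NSC peaks were NSC-only. Over the whole lists 74.7% of AST peaks and 65.5% of NSC peaks were shared. H19 is read towards lower coordinates, so peaks at higher coordinates lie upstream of it, the side of its control region. Within 10 kb of the H19 position (149764000 on chromosome 7) all peaks lay upstream, 3 in NSCs and 2 in ASTs.

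The first NSC peak upstream of H19 began 2.19 kb away, at 149766193 to 149766354, and had a fold enrichment of 5.87 (3.59 to 9.07) and no AST partner. Only 40 bases separated it from the next NSC peak, at 149766395 to 149766740 (7.33, 4.74 to 10.8), which overlapped the AST peak at 149766560 to 149766772 (6.46, 3.76 to 10.3). The third lay 3.59 kb away at 149767586 to 149767735 (5.57, 3.35 to 8.70), overlapping the AST peak at 149767631 to 149767792 (7.98, 4.94 to 12.2). Both shared pairs had intervals that overlapped between the cell types and summits 17 and 13 bp apart. These peaks were weak or ordinary for their list: the percentiles were 22.7, 39.2 and 18.8 for the NSC peaks and 30.2 and 51.3 for the AST peaks.

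**Figure D2:**
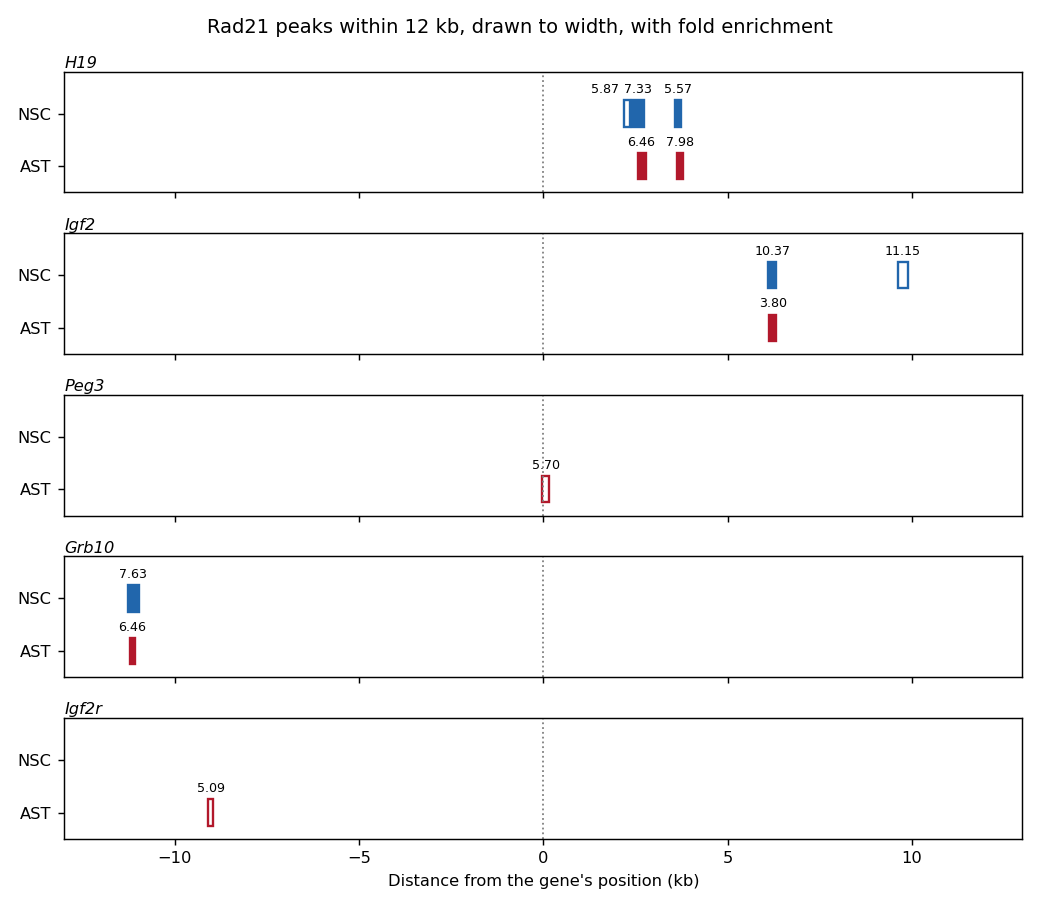
Rad21 peaks within 12 kb of the positions of H19, Igf2, Peg3, Grb10 and Igf2r, as boxes drawn to their width at their distance in kb along the chromosome (horizontal axis), with NSCs above, ASTs below, shared peaks filled, cell-type-only peaks open and the fold enrichment printed over each. All 5 genes are read leftwards, and upstream is to the right: the group at H19 lies 2.19 to 3.63 kb upstream, and the Peg3 box, in ASTs alone, covers the position itself.

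Between the positions of H19 and Igf2, 88 kb apart, NSCs had 4 peaks and ASTs had 2. The NSC peak that was not in the H19 group lay 32.6 kb upstream of H19 at 149796612 to 149796782 (7.92, 5.22 to 11.5) and was NSC-only. Upstream of Igf2, whose position is 149852000, a shared site lay 6.11 kb away at 149858109 to 149858307. Its fold enrichment was 10.4 (7.41 to 14.1) in NSCs and 3.80 (2.43 to 5.65) in ASTs, and these intervals did not overlap. The background differed as well, since the AST peak had 24 fragments over a background of 6.32, or 2.40 times the usual level of its list, and the NSC peak had 40 fragments over 3.64, or 1.13 times. How far background accounts for the lower AST fold enrichment was not tested.

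The strongest NSC-only peak of all loci also lay upstream of Igf2, 9.61 kb away at 149861611 to 149861891. It had a fold enrichment of 11.15 (7.89 to 15.3), a width of 281 bp and an ordinary background of 3.22 fragments, and a percentile of 65.3 in the NSC list. It was the only one of the 9 NSC-only members above the list median. Of all NSC peaks at or above that median, 88.4% had an AST partner, and of those below it 42.5% had one.

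On the other side of H19, the strongest site of the window stood near its edge, 243.7 kb downstream, at 149520251 to 149520546 in NSCs (17.5, 13.5 to 22.4) and 149520241 to 149520490 in ASTs (16.35, 11.8 to 22.0). A pair of shared sites followed at 142.5 and 137.5 kb, with 10.6 and 10.85 in NSCs and 6.08 at both in ASTs. A pair of NSC-only peaks lay nearer, at 96.8 kb (7.92) and 80.2 kb (6.75). The last shared site of the joined windows lay 228.7 kb upstream of Igf2, on the side of Ins2 and Th, the genes of insulin and tyrosine hydroxylase, with 10.3 in NSCs and 6.84 in ASTs. Fold enrichment was thus higher in NSCs at 6 of the 7 shared sites of the joined windows, the exception being the H19 site 3.59 kb upstream. Over all overlapping pairs of the genome NSC fold enrichment was the higher in 70.8%.

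The Kcnq1ot1 window (position 150482000 on chromosome 7) held 6 peaks in each list, 4 of them shared in each (66.7%). The whole lists gave 65.5% for NSC and 74.7% for AST peaks. The nearest site in either cell type was 72.2 kb upstream in the direction of Cdkn1c, a cell-cycle inhibitor. Among the shared sites of all loci it had the largest ratio of fold enrichment between the cell types. It lay at 150554183 to 150554436 in NSCs, with 37 fragments and a fold enrichment of 10.85 (7.64 to 15.0), and at 150554210 to 150554471 in ASTs, with 95 fragments and 30.1 (24.3 to 36.8). The intervals were well apart, the AST value was 2.77 times the NSC value, and 0.880% of the 12098 overlapping pairs of the genome had a higher ratio. The summits were 3 bp apart. The AST peak was 262 bp wide, where the 119 AST peaks of fold enrichment 25 to 35 had a median of 359 bp (quartiles 254 and 422), and its background was 1.2 times the usual. The percentiles of this site were 63.7 in NSCs and 99.7 in ASTs. At the site 6.11 kb upstream of Igf2 the NSC value was 2.73 times the AST value. By percentile several sites differed more, that Igf2 site (61.3 and 1.58) and the Grb10 site 168.0 kb upstream (11.3 and 84.8) the most. Peg3 sites 143.8 kb downstream (78.0 and 27.7) and 188.1 kb upstream (37.6 and 77.4) were among them. So were the H19 sites 142.5 kb (62.1 and 24.5) and 137.5 kb (63.7 and 24.5) downstream.

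On the downstream side, the strongest NSC peak of the window lay 142.3 kb away at 150339735 to 150340132 (19.95, 15.5 to 25.3), with an AST partner of 12.2 (8.32 to 17.2). A shared site at 209.7 kb had 11.4 in NSCs and 7.92 in ASTs. The upstream site at 170.3 kb, in the direction of Phlda2 and Nap1l4, had 9.97 and 7.60. The cell-type-only peaks here were all below the median fold enrichment of their list. In NSCs they lay 208.7 kb downstream (5.28) and 167.9 kb upstream (7.33), and in ASTs 201.2 and 194.0 kb downstream (4.31 and 6.46), the first with a background 1.5 times the usual.

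At Peg3 all 6 NSC peaks were shared, where the whole NSC list gave 65.5%, and ASTs had 8 peaks, 2 of them AST-only. One of these covered the position of Peg3 itself, 6683000 on chromosome 7. It lay at 6682960 to 6683164, and was the only peak in either list that covered the position of any of the 8 genes. It was weak, with 15 fragments, a fold enrichment of 5.70 (3.19 to 9.40) and a −log10 q of 4.51, and its percentile in the AST list was 18.6. The position is approximate, so the distance of this peak from the annotated start of Peg3 is not given here. The NSC list held no peak closer than 70.6 kb. Absence from a list means that a site was not called, and not that it was unbound. Of AST peaks below their list median, 63.4% had an NSC partner.

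The RefSeq promoter of Peg3, matched by symbol, is shown because it is the one start region with a peak at its approximate position. It is given on build GRCm38.p6, minus strand, chr7:6730370-6730669, with the 250 bases before the annotated start in lower case and the 50 from the start in capitals. Whether the mm9 peak covers these same bases was not analysed here.
Peg3 promoter: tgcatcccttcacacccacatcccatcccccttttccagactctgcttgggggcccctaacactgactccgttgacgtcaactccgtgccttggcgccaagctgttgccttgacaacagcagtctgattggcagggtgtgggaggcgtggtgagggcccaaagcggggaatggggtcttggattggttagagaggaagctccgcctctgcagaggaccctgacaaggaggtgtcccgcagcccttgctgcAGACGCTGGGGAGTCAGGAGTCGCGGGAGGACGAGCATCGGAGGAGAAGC
The letters GGNGGCAG, the inner part of the CTCF motif, were not found in it on either strand, and neither was the YY1 motif GCCATNTT, YY1 being a factor known to bind the Peg3 control region. These letters occurred in 12.6% and 6.05% of 32851 promoters of this length. Of the 8 genes, 7 had promoters in the table, 12 in all, and the CTCF letters were found in 1 promoter each of Igf2 and Grb10. No motif was sought in the peaks, since no mm9 sequence was used here.

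The other AST-only peak at Peg3 lay 109.7 kb upstream, on the side of Usp29, at 6792694 to 6792907 (6.66, 4.01 to 10.4). Of the shared sites, the one 143.8 kb downstream differed most, with 14.1 (10.4 to 18.7) in NSCs and 6.33 (4.10 to 9.34) in ASTs, where its background was 1.5 times the usual. Those intervals did not overlap. At 204.1 kb downstream, the widest NSC peak of the window (418 bp) had 12.6 against 7.98 in ASTs. The order was the other way at 70.6 kb downstream (7.31 in NSCs, 9.89 in ASTs), at 188.1 kb upstream (7.19 and 11.4) and at 210.6 kb upstream (5.28 and 6.84), with overlapping intervals at each. The NSC background was 1.24 and 1.59 times the usual at the first and second of these. At 206.9 kb upstream the values were 9.39 and 7.98.

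Around Dlk1 and Meg3, at 110691000 and 110779000 on chromosome 12, no peak was called in either cell type in the joined window of 588 kb. The peaks are numbered without a break in both lists, also across this stretch. The gap between adjacent NSC peaks that held both genes ran from 110192063 to 111636631, or 1.44 Mb from start to start, and 1.01% of the 18385 NSC gaps were at least as long. In ASTs it ran from 110311089 to 111127845, or 0.817 Mb, and 2.96% of 16136 gaps were at least as long. Both are shares of gaps by number. Long gaps cover a larger share of the genome than that, so a given position falls in them more often. Emptiness as such was not rare, since 21.0% of 5282 fixed stretches of 500 kb had no peak in either list.

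The NSC peaks that ended the gap were both shared, 498.9 kb before Dlk1 (10.85) and 857.6 kb past Meg3 (10.6). The AST peaks that ended its gap were both AST-only. The one 379.9 kb before Dlk1 had a fold enrichment of 11.8, with a percentile of 80.1 in its list. The one 348.8 kb past Meg3, on the side where Rtl1, Rian and Mirg follow in the reference gene order, had 14 fragments and 5.32. A further AST-only peak lay 744.0 kb past Meg3 (14.45), still inside the NSC gap. Inside the NSC gap the AST list thus held 3 AST-only peaks, the nearest of them 348.8 kb from Meg3.

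**Figure D3:**
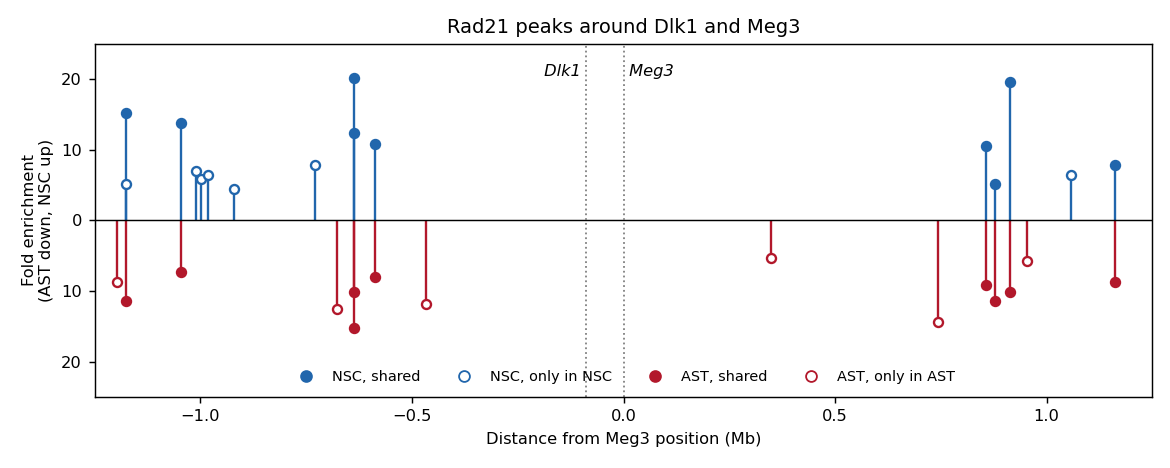
Fold enrichment (vertical axis, NSC upwards in blue, AST downwards in red, shared filled, cell-type-only open) of all Rad21 peaks within 1.2 Mb of the Meg3 position (distance in Mb, horizontal axis). The NSC peaks stop 498.9 kb before Dlk1 and begin again 857.6 kb past Meg3, with 3 AST-only peaks in between.

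At Grb10 all 8 NSC peaks were shared, and so were 9 of the 10 AST peaks, where the whole lists gave 65.5% and 74.7%. Of all fixed 500 kb stretches, 12.8% held 8 or more NSC peaks and 4.09% held 10 or more AST peaks. The strongest site of all loci in both lists lay 63.8 kb downstream of the Grb10 position (11937000 on chromosome 11). It lay at 11873231 to 11873807 in NSCs, with 122 fragments and a fold enrichment of 35.8 (29.7 to 42.7), and at 11873333 to 11873842 in ASTs, with 90 fragments and 34.2 (27.5 to 42.1). It stood at percentiles 99.6 in NSCs and 99.9 in ASTs, was 577 and 510 bp wide, and its summits were 11 bp apart. A shared site followed at 62.1 kb, with 8.21 in NSCs and 5.70 in ASTs, at percentiles 46.6 and 18.6.

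The site nearest to the Grb10 position was shared and stood below the median of both lists, at percentiles 42.0 in NSCs and 30.2 in ASTs. It lay 11.3 kb downstream at 11925736 to 11926023 in NSCs (7.63, 4.98 to 11.2) and 11925783 to 11925925 in ASTs (6.46, 3.76 to 10.3). The only AST-only peak of the window lay upstream, at 49.4 kb (6.08, 3.48 to 9.87). Farther upstream, on the side of Cobl, a site 168.0 kb away was stronger in ASTs, with 17 fragments and 4.99 (2.91 to 7.99) in NSCs and 34 fragments and 12.9 (8.95 to 18.1) in ASTs. Its intervals did not overlap, and 1.16% of overlapping pairs of the genome had a higher ratio of AST to NSC.

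Downstream, in the direction of Ddc, the gene of dopa decarboxylase, a strong site lay 216.8 kb away at 11720241 to 11720722 in NSCs (28.2, 22.8 to 34.4) and 11720189 to 11720700 in ASTs (19.8, 14.8 to 25.9). Its neighbours had 14.1 and 15.9 at 192.7 kb and 9.97 and 9.09 at 224.9 kb, in NSCs and ASTs. At 248.5 kb a single NSC peak of 465 bp (7.63) overlapped a pair of AST peaks of 129 and 168 bp (5.70 and 9.13). This peak lay just inside the window, and the nearest peaks just outside it, 254.4 kb from Grb10, had 10.6 in NSCs and 14.1 in ASTs.

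At Igf2r, 5 of 7 NSC and 5 of 6 AST peaks were shared, where the whole lists gave 65.5% and 74.7%. The peak nearest to the position (12962000 on chromosome 17) was AST-only and lay 9.09 kb downstream, at 12952909 to 12953046. With 14 fragments, a fold enrichment of 5.09 (2.78 to 8.54), a width of 138 bp and a −log10 q of 3.58 it had the fewest fragments of any AST member. In NSCs the nearest site lay 41.4 kb upstream. On that side Airn, the antisense RNA that silences Igf2r, and Mas1 follow in the reference gene order. This site was shared and strong in both cell types, at 13003370 to 13003648 in NSCs (16.5, 12.9 to 20.9) and 13003343 to 13003721 in ASTs (15.6, 11.2 to 21.1).

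Downstream of Igf2r, the strongest NSC peak of the window lay 54.9 kb away at 12907118 to 12907443 (18.2, 13.9 to 23.3), with 11.8 (8.01 to 16.7) in ASTs. At 108.6 kb both lists had a peak over raised background, 2.49 times the usual in NSCs and 2.10 in ASTs, with 6.96 and 9.95. Weaker shared sites lay 234.3 kb downstream (6.45 and 7.60) and 111.2 kb upstream (6.16 and 7.60). The NSC-only peaks, 227.4 and 240.9 kb upstream, had 6.45 and 2.70, the second over a background 2.17 times the usual.

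The shared sites were then compared between the cell types over all loci. The 30 NSC and 31 AST shared members formed 31 overlapping pairs, with the pair of AST peaks at one Grb10 site counted separately. The median ratio of AST to NSC fold enrichment was 0.881 (range 0.366 to 2.77), where all 12098 pairs of the genome had 0.795. NSC fold enrichment was the higher in 20 of the 31 pairs, against 70.8% over the genome. The AST value was at least 2 times the NSC value in 2 pairs and at most 0.5 times in 2, where 2.66% and 13.6% of all pairs were. The NSC peak was the wider in 20, against 73.3%. The counting intervals overlapped in 27 pairs. They were apart in 4: AST was higher at the sites near Kcnq1ot1 and Grb10 described above, which 2.69% of all pairs matched, and NSC was higher at those near Igf2 and Peg3, which 14.8% matched. Summits lay within 50 bp of each other in 26 of the 31 pairs (83.9%), where 87.9% of all pairs did. Their median distance was 18 bp, where the genome had 19 bp.

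**Figure D4:**
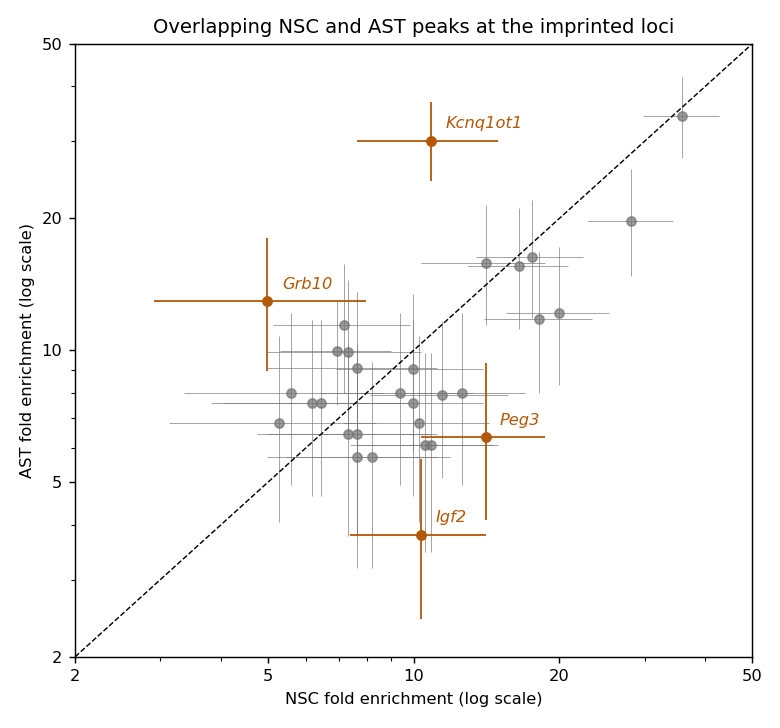
NSC (horizontal axis) and AST (vertical axis) fold enrichment, both on log scales, of the 31 overlapping pairs of Rad21 peaks at the imprinted loci, with 95% Poisson intervals as bars and equality as the dashed line. The 4 pairs whose intervals are apart are in orange with their gene, Kcnq1ot1 and Grb10 above the line and Peg3 and Igf2 below it.

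Most sites above the 75th percentile in either list were above it in the other, but not all. The share over the whole lists is not given here. Of the exceptions, the Peg3 site 143.8 kb downstream stood at percentiles 78.0 in NSCs and 27.7 in ASTs. The others were above the 75th percentile in ASTs alone. The Grb10 site 168.0 kb upstream stood at 11.3 and 84.8. The Kcnq1ot1 site 72.2 kb upstream stood at 63.7 and 99.7, and the Peg3 site 188.1 kb upstream at 37.6 and 77.4. Across the 31 pairs Pearson's r of log2 fold enrichment was 0.559 and Spearman's rho 0.352. Without the 2 pairs farthest from the median in NSCs, both of them Grb10 sites strong in both cell types, they were 0.314 and 0.213. Over all pairs of the genome, with none left out, they were 0.529 and 0.522. These are descriptions across sites of the same 2 libraries.

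Cell-type-only members were weaker and narrower than shared ones within each list, as were cell-type-only peaks of the whole lists. In NSCs the 9 had a median fold enrichment of 6.75 and a median width of 171 bp, where the 30 shared had 10.1 and 256.5 bp. Over the whole NSC list these medians were 6.13 and 176 bp for NSC-only and 11.15 and 267 bp for shared peaks. In ASTs the 6 had 5.89 and 151.5 bp, where the 31 shared had 7.98 and 213 bp, and over the whole AST list they were 6.46 and 162 bp for AST-only and 8.55 and 214 bp for shared peaks. All 17 AST members at or above their list median were shared, where the whole list gave 86.0%, and 14 of the 20 below it were, where it gave 63.4%. In NSCs these counts were 18 of 19, with 88.4% for the list, and 12 of 20, with 42.5%. Raised background, over 1.1 times the usual, was found at 6 NSC and 7 AST members, or 15.4% and 18.9%, and at 26.8% and 33.8% of the whole lists.

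**Figure D5:**
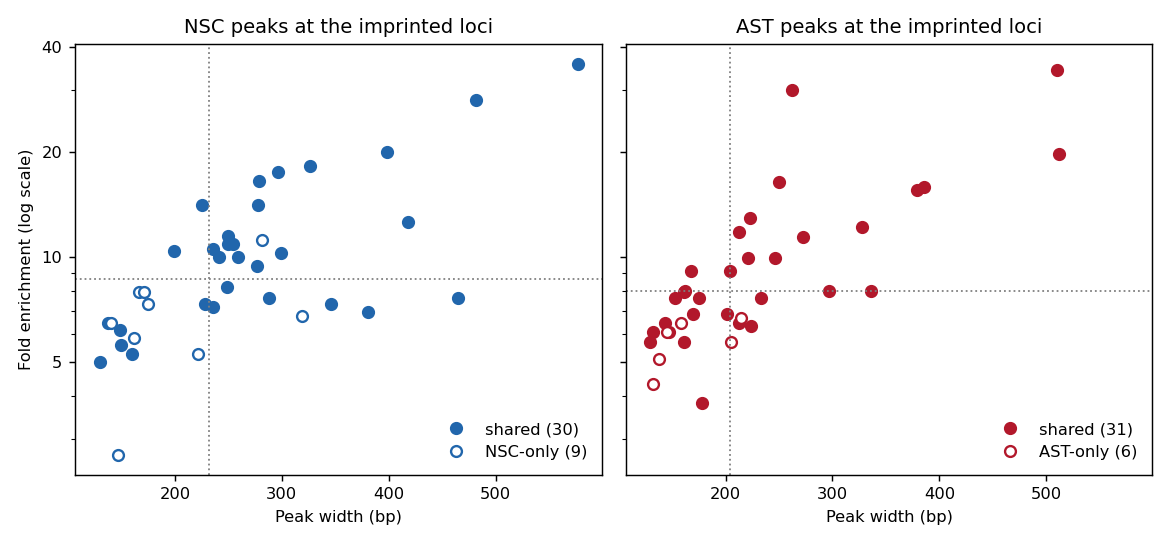
Fold enrichment on a log scale (vertical axis) against width in bp (horizontal axis) for the 39 NSC and 37 AST Rad21 peaks at the imprinted loci, each point a peak, shared peaks filled and cell-type-only peaks open, with dotted lines at the medians of the whole list. The widest and strongest peaks, up to 577 bp and 35.8 in NSCs and 512 bp and 34.2 in ASTs, are shared, and all open points but 1, the NSC-only peak of 11.15 near Igf2, lie below the median fold enrichment.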

How the data were processed

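The authors deposited 1 peak list per cell type, made, per the labels, with Bowtie 1.0.0, MACS2 2.0.9 and build mm9. Settings, read filters and the threshold are not given in the sources used here. Among the authors' deposited values were used the fold enrichment (a ratio of pile-up to local background), the −log10 p, the −log10 q and a score of 10 times the −log10 q. The highest q listed was 0.0955 in NSCs and 0.0933 in ASTs. Read totals were not given, so depth is known only as fragments at peaks.

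Peaks were taken by start within 250 kb of each position and called shared when they had 1 bp or more in common with a peak of the other cell type. Positions count from 1. Fragments at the summit and the local background were recovered from fold enrichment and −log10 p, taken as a Poisson tail with 1 scale per list, 0.944 in NSCs and 1.00 in ASTs. This gave back −log10 p within 0.05 for 100% and 99.99% of peaks. The usual background, the median at fold enrichment over 8, was 3.22 and 2.63 fragments. On simulated lists of 18405 and 16157 peaks fragments were recovered exactly for 99.7% and 100%. Upstream and downstream follow the direction of transcription. Gene order and promoters are from RefSeq, GRCm38.p6, and 21 of 22 listed neighbour genes were found there. The members and the gene list were chosen with earlier results of these data known. Peaks to be named were, at each gene, the strongest and the nearest in each list and cell-type-only peaks above the list median; the others are given by position or value. The work was done in Python 3.11.15 with pandas 2.3.3, scipy 1.17.1, numpy 2.4.6 and, for plots, matplotlib 3.10.9. Alternatives were other q thresholds, lists of equal length, windows, positions and overlap rules and, added after the data had been seen, lists without peaks of raised background.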

Additional observations from a re-analysis of the deposited data

How the results depend on the processing

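No paired analysis was possible because each cell type had 1 Rad21 library. Alternative settings gave 78 values over all loci, of which 70 lay inside the 95% interval of the reported share or median, or within 1.5 times the reported count, and 8 did not. Narrowing the windows to 100 kb left 15 NSC and 13 AST peaks, and widening them to 500 kb gave 68 and 63. With a −log10 q of at least 10 in both lists, the AST members fell to 15, their median fold enrichment rose to 12.2 and their median width to 250 bp, and 51.9% of the remaining NSC members had an AST partner, since partners below the threshold no longer counted. Of 144 recomputed counts at single genes, 110 lay within 1.5 times the reported one and 34 did not. The 110 include the counts of Dlk1 and Meg3 that stayed at 0, and H19 and Igf2 have many peaks in common. At a −log10 q of at least 10 no AST peak was left at Igf2, and 1 was left at H19. Dlk1 and Meg3 stayed without a peak in both lists in every setting other than windows of 500 kb, where Dlk1 had 1 NSC and 3 AST peaks and Meg3 had 2 AST peaks. The positions are approximate, and moving them by 5 kb kept every value over all loci within its interval or within 1.5 times. With 1 library per cell type, weak sites, of as few as 14 fragments, are at the limit of what these lists can show.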
